A study of Mus musculus with 6 samples.

Results

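Matrix proteases and their inhibitors were examined in dorsal root ganglia of mice with an injured kidney. These ganglia hold the cell bodies of the sensory neurons whose axons reach skin and organs. The members were all genes whose symbol placed them among the matrix metalloproteinases (Mmp), the membrane disintegrin metalloproteases (Adam), their secreted relatives with thrombospondin repeats (Adamts), the ADAMTS-like proteins (Adamtsl) or the tissue inhibitors of metalloproteinases (Timp). This gave 85 of the 57180 genes in the deposited table. The rule reads symbols only, but the family was chosen with earlier results of these data known. Of these members, 53 passed the filter on low counts and were tested, 14 had some counts but were not tested, and 18 had no count in any library.

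In the ischemia-reperfusion (I/R) group, 3 wild-type (WT) mice lost the right kidney, and blood flow to the left one was stopped by a clamp on its pedicle for 28 min before the clamp was opened. In the sham group, 3 WT mice had the same surgery with no clamp on the vessels. Whether sham mice also lost the right kidney is not said in so many words. Ganglia from thoracic level 8 to lumbar level 2 were taken 24 h after surgery, with 1 library per mouse, and the series title names nociceptive nerves and kidney macrophages as its subject. No strain, sex or age is given in the labels. A library is a mixture of all cell types of the ganglion and its coverings, so fewer cells of a type and less RNA per cell cannot be told apart.

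Metalloproteinases of these families hold a zinc ion between histidine side chains and use it to cut peptide bonds. MMPs cut collagens and other proteins of the extracellular matrix, ADAMs release the outer parts of membrane proteins such as growth factor precursors and cytokine receptors, and ADAMTS enzymes cut proteoglycans or trim procollagens. TIMPs block the active site. Several ADAMs of the nervous system, and all ADAMTS-like proteins, lack protease activity and act through binding to other proteins. In peripheral nerve, these enzymes are known for clearing matrix after injury and for shedding signals that pass between axons and Schwann cells.

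A metalloprotease needs its zinc-binding site, so this site was looked for in the reading frame of every member. A match alone does not show that a member acts as a protease. The pattern was a histidine followed by a glutamate, then the second histidine after a gap of 2 residues, then the third histidine after a gap of 5. It was found in 23 of 23 Mmp genes, 19 of 19 Adamts genes and 21 of 34 Adam genes. It was found in 0 of 5 Adamtsl and 0 of 4 Timp genes. The first 9 codons of the site are printed for members on which the results turn, from GENCODE transcripts of GRCm38, 5′ to 3′. Capitals mark the codons of the first histidine, the glutamate and the second histidine.
Mmp16: CATGAGctgggaCATgctctaggactg
Adam8: CATGAGctgggcCACaacctgggcatg
Mmp2: CATGAGttcggcCATgccatggggctg
Mmp25: CATGAAtttggcCATgccctaggcctt
Adam10: CATGAAgttggaCATaactttggatct
Adam17: CATGAAttgggaCATaattttggagca

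The next stretches come from the 3 brain and nerve ADAMs without the pattern, aligned to the 9 codons of Adam8. Adam22 keeps 1 of the 3 marked codons, in capitals, and Adam11 and Adam23 keep 0.
Adam11: cagacgctagggcagaacttgggcatg
Adam22: cagtcactagccCACaatgtcggtata
Adam23: cagagcctggctcaaaaccttggaatc

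The most abundant members per transcript length were an inhibitor and proteins without a protease site. Levels between genes are compared here in TPM (transcripts scaled to gene length and library size), computed from the deposited counts and gene lengths and averaged over the 6 libraries. Timp2 stood first in the family at 685 TPM, followed by Adam23 at 395 TPM, Adam11 at 174 TPM, Timp3 at 141 TPM and Mmp15 at 105 TPM. The deposited length of Adam23 was 2655 bases, that of a short transcript. With its longest transcript of 6426 bases its level was 163 TPM, which put it next below Adam11. Summed over families, the level was 929 TPM for Adam genes, 832 TPM for Timp genes, 285 TPM for Mmp genes, 85.4 TPM for Adamts genes and 41.4 TPM for Adamtsl genes. Members without the zinc site made up 68.1% of the summed Adam level. Both values rest on the length of Adam23. With the longest transcript of each gene the Adam sum was 719.5 TPM, below the Timp sum of 833 TPM, and members without the site made up 55.7% of it. The highest member with the site was Mmp15, and the gelatinases were lower, Mmp2 at 13.1 TPM and Mmp9 at 0.790 TPM.

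**Figure D1:**
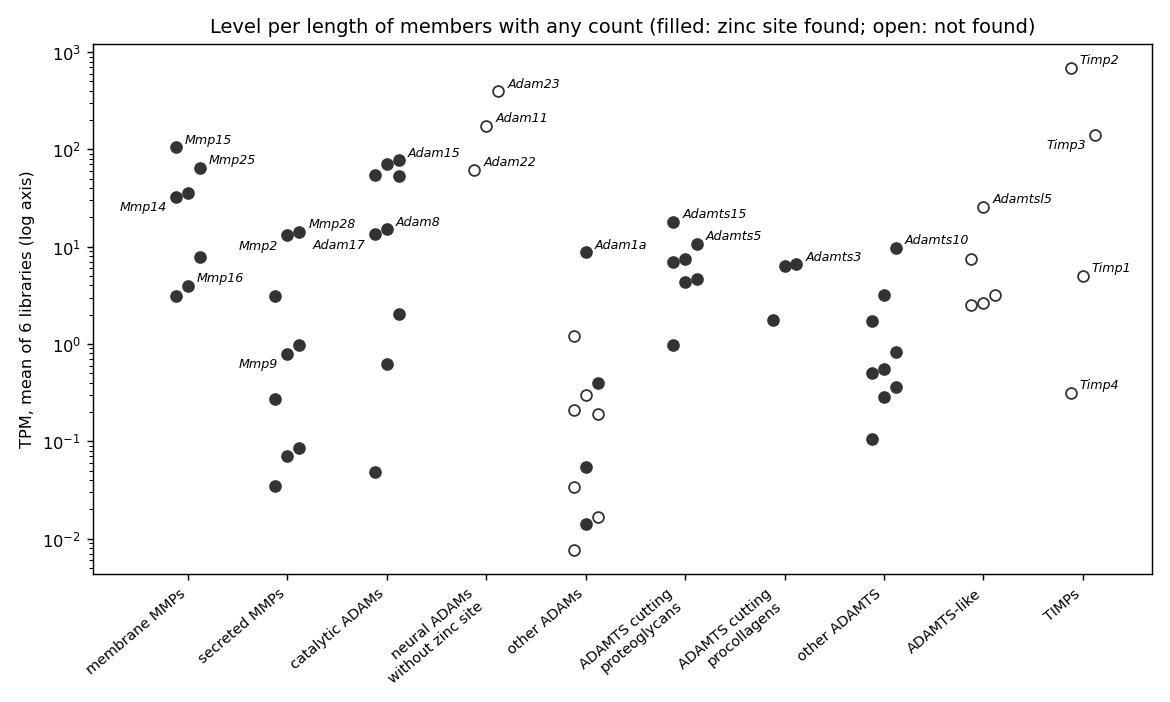
Level per transcript length (TPM, mean of all 6 libraries, log axis) of each member with any count, by role. Filled points have a zinc site in their reading frame and open points do not, and the 3 highest points, Timp2, Adam23 and Adam11, are open.

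Between the groups, 2 of 53 tested members changed in I/R ganglia, Mmp16 and Adam8, and both rose. A gene was called at a Benjamini-Hochberg adjusted p under 0.05 in edgeR's quasi-likelihood test, adjusted over all 16346 genes tested. The 2 members are 3.77% of those tested, against 1.15% of all tested genes called, of which 0.722% were called higher and 0.428% lower. No member was called lower by edgeR with the filter on low counts or by limma-voom, and Mmp2 was called lower by DESeq2 and by edgeR without that filter. At an unadjusted p under 0.05 there were 13 members, or 24.5% of those tested, against 10.5% of all genes. Of these, 5 were higher and 8 lower in I/R, where 5.67% of all genes were higher and 4.8% lower. The 3 I/R and 3 sham libraries did not overlap for 14 members, or 26.4%, against 17.1% of all genes. They were 7 in each direction, where 9.23% of all genes were higher and 7.83% lower. These shares describe the family and were not tested against other genes. The median log2 fold change, I/R over sham, was -0.02 over the tested members and 0.00 over all tested genes.

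Mmp16 is a membrane-anchored MMP that can activate the precursor of Mmp2. Its level in CPM (counts scaled to library size) was 11.7, 10.7 and 14.0 in I/R ganglia, against 3.04, 3.40 and 3.75 in sham ganglia. Every I/R library lay above every sham library, and the lowest I/R value was higher than the highest sham value by more than the spread within either group. The means were 12.1 ± 1.68 CPM in I/R and 3.40 ± 0.355 CPM in sham (SD, n = 3 each). The log2 fold change was 1.84 ± 0.16 (SE), a 3.57-fold increase with a 95% interval of 2.79 to 4.57, and the edgeR adjusted p was 0.00044. By p it ranked 18 among all tested genes. Its TPM averaged 6.25 in I/R and 1.72 in sham, which ranked it 28 of 85 members per length in I/R and 41 of 85 in sham. It was called in all 16 alternative fits, with log2 fold changes of 1.72 to 1.91 and adjusted p of at most 0.0435.

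The other 6 membrane-bound MMPs were not called. Mmp25, held by a lipid anchor and known in human leukocytes, had 116, 135 and 134 CPM in I/R against 105, 105 and 87.4 CPM in sham. The groups did not overlap, and the log2 fold change was 0.37 ± 0.11 (edgeR adjusted p = 0.21). Mmp14, the collagen-cutting enzyme that is the main activator of Mmp2, had 28.8, 36.4 and 32.5 CPM in I/R and 33.2, 40.1 and 26.8 CPM in sham. Its groups overlapped fully, with a log2 fold change of -0.04 ± 0.15. Mmp15, the most abundant MMP per length, had 178, 222 and 199 CPM in I/R and 241, 249 and 169 CPM in sham. Here too the groups overlapped, with sham 3 below all other libraries. Mmp23, Mmp17 and Mmp24 had log2 fold changes of -0.43, -0.13 and 0.15.

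Among secreted MMPs, 5 of 16 could be tested and none was called by edgeR, with 1 at an unadjusted p under 0.05. That gene was Mmp2, the gelatinase of fibroblasts, with 10.3, 14.3 and 11.3 CPM in I/R against 19.6, 21.5 and 17.4 CPM in sham. All 3 I/R libraries lay below all 3 sham libraries. The means were 11.98 ± 2.09 CPM in I/R and 19.5 ± 2.07 CPM in sham (SD, n = 3 each), and the log2 fold change of -0.70 ± 0.15 had an edgeR adjusted p of 0.0625. The adjusted p passed the threshold with DESeq2 (0.00326) and without the filter on low counts (0.00253), and over all 16 alternatives it ran from 0.00253 to 0.287. Genes known from fibroblasts and meninges were lower beside it. Of 12 markers of these cells, 7 were called lower, and their summed level was 556, 675 and 566 CPM in I/R against 1005, 1218 and 1106 CPM in sham. The count went down to 3 without I/R 3 and to 4 without sham 1, and was 1 against sham 2 alone, with all 12 fitted values below 0 in each of these fits. The part of these cells in the values of Mmp2 was not tested.

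The other gelatinase, Mmp9, known from neutrophils and injured tissue, was low. It had 0.642, 1.31 and 1.00 CPM in I/R and 1.37, 0.800 and 0.720 CPM in sham, where 3 counts in a library correspond to 0.137 to 0.154 CPM. The groups overlapped, and the log2 fold change was 0.03 ± 0.37, too imprecise to show a moderate difference. Mmp19 had 1.58, 1.501 and 1.64 CPM in I/R against 1.42, 0.950 and 0.668 CPM in sham. It was named after its values were seen, because its groups did not overlap while its log2 fold change of 0.63 ± 0.30 was not called (edgeR adjusted p = 0.52). Of the other secreted MMPs, Mmp28 and Mmp11 had log2 fold changes of 0.23 and 0.00. The stromelysin Mmp3, the collagenases Mmp8 and Mmp13 and the macrophage elastase Mmp12 had 3, 32, 11 and 12 counts in all 6 libraries together, and 7 members had none.

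Adam8 was the other gene that rose. It is a membrane protease known from leukocytes and from neurons, and it sheds cell adhesion molecules. It had 24.4, 25.8 and 26.6 CPM in I/R ganglia, against 10.1, 12.5 and 10.6 CPM in sham ganglia. The 2 groups were far apart, and each was narrow, at 25.6 ± 1.13 CPM in I/R and 11.1 ± 1.28 CPM in sham (SD, n = 3 each). The log2 fold change was 1.21 ± 0.12 (SE), a 2.31-fold increase with a 95% interval of 1.92 to 2.79, and the edgeR adjusted p was 0.00106. It was called in 15 of 16 alternatives. Against sham 2 alone, the sham library with little skeletal muscle RNA, its log2 fold change was 1.01 and its adjusted p 0.103. The gene overlaps Gm16201 on the opposite strand, which had a log2 fold change of -0.13. The strand setting of the counting is not given in the sources used here.

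Levels of cells that could carry Adam8 are given beside it. Of 9 markers of injured sensory neurons, 7 were called higher, and their summed level was 1006, 896 and 761 CPM in I/R against 387, 397 and 400.2 CPM in sham. Of 11 macrophage markers, 1 was called higher, the scavenger receptor Cd163, and their summed level was 73.1, 71.6 and 68.7 CPM in I/R against 58.9, 57.4 and 57.3 CPM in sham. Cd163 was not called in any fit that left out a library. The summed level of the genes that define neutrophils was 7.91, 8.76 and 7.85 CPM in I/R and 6.63, 8.40 and 9.05 CPM in sham, with no gene of that list called. Macrophage and injured neuron sums were thus higher in every I/R library, and neutrophil sums overlapped. Their part in the rise of Adam8 was not tested.

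The 250 bases before the start of Adam8 are printed because Adam8 is a member that rose, from RefSeq (GRCm38.p6, minus strand, chr7:139992563-139992812). The capitals mark a GC box, the motif GGGCGG read on the other strand.
Adam8: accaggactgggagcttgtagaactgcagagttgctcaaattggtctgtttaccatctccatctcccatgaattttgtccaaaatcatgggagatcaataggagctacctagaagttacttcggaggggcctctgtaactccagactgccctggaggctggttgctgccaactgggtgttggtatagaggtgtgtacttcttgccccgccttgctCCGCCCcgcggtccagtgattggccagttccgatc
Windows of 250 bases were searched on both strands for the AP-1 motif TGANTCA, the cAMP response element TGACGTCA, the STAT motif TTCNNNGAA and the GC box. RefSeq windows were matched for 54 of the 85 members, 33 of them tested, and Mmp16 was not among these. The GC box was in 24 of these 33 and in 32.7% of all 32851 windows. The AP-1 motif was in 1 of the 33, Adam19, and in 6.75% of all windows. The STAT motif was in 2, Adam21 and Mmp23, against 7.02% of all windows, and the cAMP response element was in 0, against 1.55%. Members were counted as genes with a match in any of their windows, while the shares are of single windows, so the units differ. A match describes letters only, and the windows differ in kind of gene, which was not matched.

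Adam10 and Adam17, the main shedding enzymes of most cells, were not called. Adam10 had 95.8, 92.6 and 104 CPM in I/R and 93.4, 91.7 and 111 CPM in sham, a log2 fold change of -0.02 ± 0.11. Its groups overlapped, and its 95% interval of -0.26 to 0.22 leaves room for a small change in either direction. Adam17, which releases tumor necrosis factor, had 17.6, 21.3 and 23.6 CPM in I/R against 26.6, 24.96 and 26.6 CPM in sham. Its I/R libraries lay below all sham libraries, with a log2 fold change of -0.32 ± 0.12 (edgeR adjusted p = 0.381). Adam17 overlaps Iah1 on the opposite strand, whose log2 fold change was -0.01. Adam33, known from fibroblasts and smooth muscle, had 2.08, 1.69 and 2.05 CPM in I/R against 2.60, 3.75 and 2.88 CPM in sham. The groups did not overlap, and the log2 fold change of -0.66 ± 0.22 was not called (edgeR adjusted p = 0.272). The 4 other catalytic ADAMs tested, Adam9, Adam12, Adam15 and Adam19, had log2 fold changes of 0.06 to 0.20.

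The 3 neural ADAMs without the zinc site were abundant, and 0 of 3 were called with any of edgeR, DESeq2 and limma-voom. None had an unadjusted p under 0.05. They bind the secreted LGI proteins and help to hold ion channels and synaptic receptors in place. Adam23 had 403, 414 and 490.4 CPM in I/R against 387, 385 and 377 CPM in sham. The groups did not overlap, but I/R 3 stood above the other 2 I/R libraries, and the log2 fold change was 0.19 ± 0.10 (edgeR adjusted p = 0.56). Adam22 had 212, 217 and 263 CPM in I/R and 212, 213 and 213 CPM in sham, and Adam11 had 302, 359.8 and 327 CPM in I/R and 379, 415 and 292 CPM in sham. Both overlapped between the groups, with log2 fold changes of 0.12 ± 0.10 and -0.14 ± 0.13. Of their LGI partners, 0 of 4 were called.

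Of the 22 ADAMs outside these groups, many of them known from testis, 11 had no count in any library. The 3 tested, Adam1a, Adam5 and Adam21, had log2 fold changes of -0.06, 0.07 and -0.27. Of the 11 without a count, 7 stand in runs of neighbouring Adam genes on chromosome 8.

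**Figure D2:**
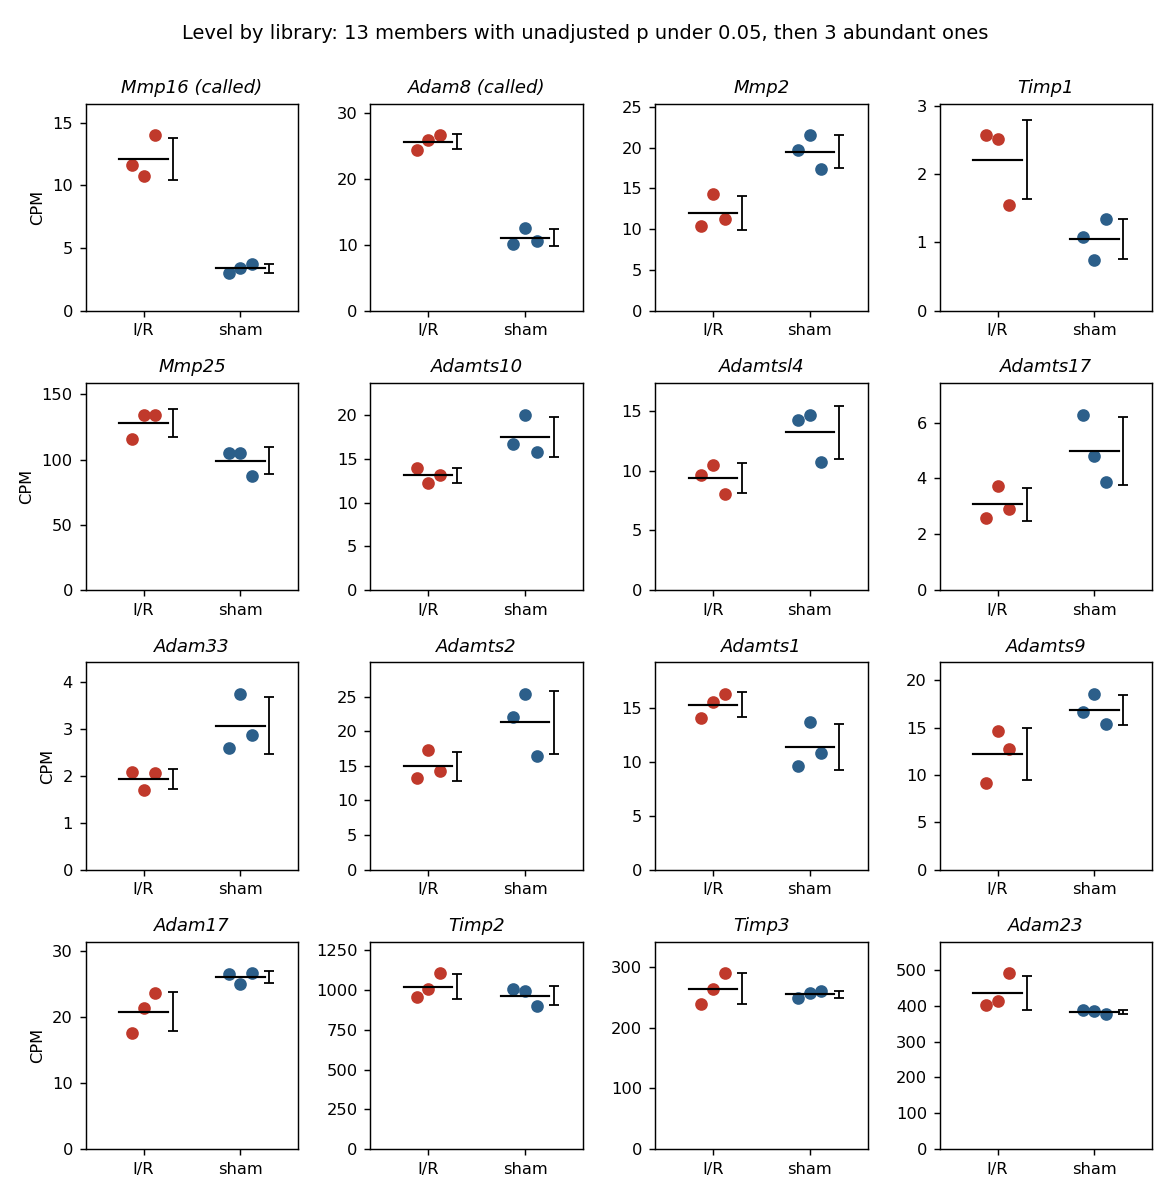
CPM in each library for the 13 members with an unadjusted p under 0.05, then Timp2, Timp3 and Adam23, with I/R left and sham right, the mean as a line and the SD (n = 3) as a bar beside it. Mmp16 and Adam8 show the widest gaps relative to their spread, while Timp2 and Timp3 overlap between the groups.

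No ADAMTS enzyme was called, 0 of 18 tested, by edgeR, DESeq2 or limma-voom. At an unadjusted p under 0.05 there were 5, 1 higher and 4 lower in I/R. Of all tested genes, 5.67% were higher and 4.8% lower at this threshold, and the difference in shares was not tested. Among the 7 enzymes that cut proteoglycans such as aggrecan and versican, Adamts1 had 14.1, 15.6 and 16.3 CPM in I/R against 9.62, 13.8 and 10.8 CPM in sham. Adamts9, another of them, had 9.19, 14.6 and 12.7 CPM in I/R against 16.6, 18.6 and 15.4 CPM in sham. Neither overlapped between the groups, and they lay in opposite directions, with log2 fold changes of 0.43 ± 0.15 (edgeR adjusted p = 0.307) and -0.47 ± 0.17 (edgeR adjusted p = 0.33). Against sham 2 alone the log2 fold change of Adamts1 was 0.13. Adamts15 and Adamts5, the most abundant of these enzymes per length, had log2 fold changes of -0.02 and 0.08.

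Adamts2, the main enzyme that removes the amino-terminal propeptide of fibrillar procollagens, had 13.2, 17.3 and 14.2 CPM in I/R and 22.1, 25.4 and 16.5 CPM in sham. Sham 3 lay within the I/R range, and the log2 fold change of -0.51 ± 0.17 was not called (edgeR adjusted p = 0.274). The related Adamts14 and Adamts3 had log2 fold changes of -0.58 and 0.09. Adamts10, which binds fibrillin, had 13.9, 12.3 and 13.2 CPM in I/R against 16.7, 20.1 and 15.7 CPM in sham. Adamts17, linked in humans to a short-stature syndrome like that of Adamts10, had 2.57, 3.73 and 2.92 CPM in I/R against 6.29, 4.80 and 3.86 CPM in sham. Both had all I/R libraries below all sham libraries, with log2 fold changes of -0.42 ± 0.13 (edgeR adjusted p = 0.231) and -0.70 ± 0.22 (edgeR adjusted p = 0.257).

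ADAMTS-like proteins, which bind matrix without cutting it, all had fitted values below 0, but 0 of 5 were called, whether with edgeR, DESeq2 or limma-voom. Their log2 fold changes ran from -0.50 to -0.13, with a median of -0.20, and lay below 0 under each scaling tried. Adamtsl4, a fibrillin-binding protein, had 9.69, 10.5 and 8.03 CPM in I/R against 14.3, 14.7 and 10.7 CPM in sham. It was the only one of the 5 whose groups did not overlap, at -0.50 ± 0.16 (edgeR adjusted p = 0.255). All 8 members with lower values in I/R at an unadjusted p under 0.05, namely Mmp2, Adamts10, Adamtsl4, Adamts17, Adam33, Adamts2, Adamts9 and Adam17, stand beside the lower fibroblast and meninges sums given with Mmp2. The part of these cells in the values was not tested.

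**Figure D3:**
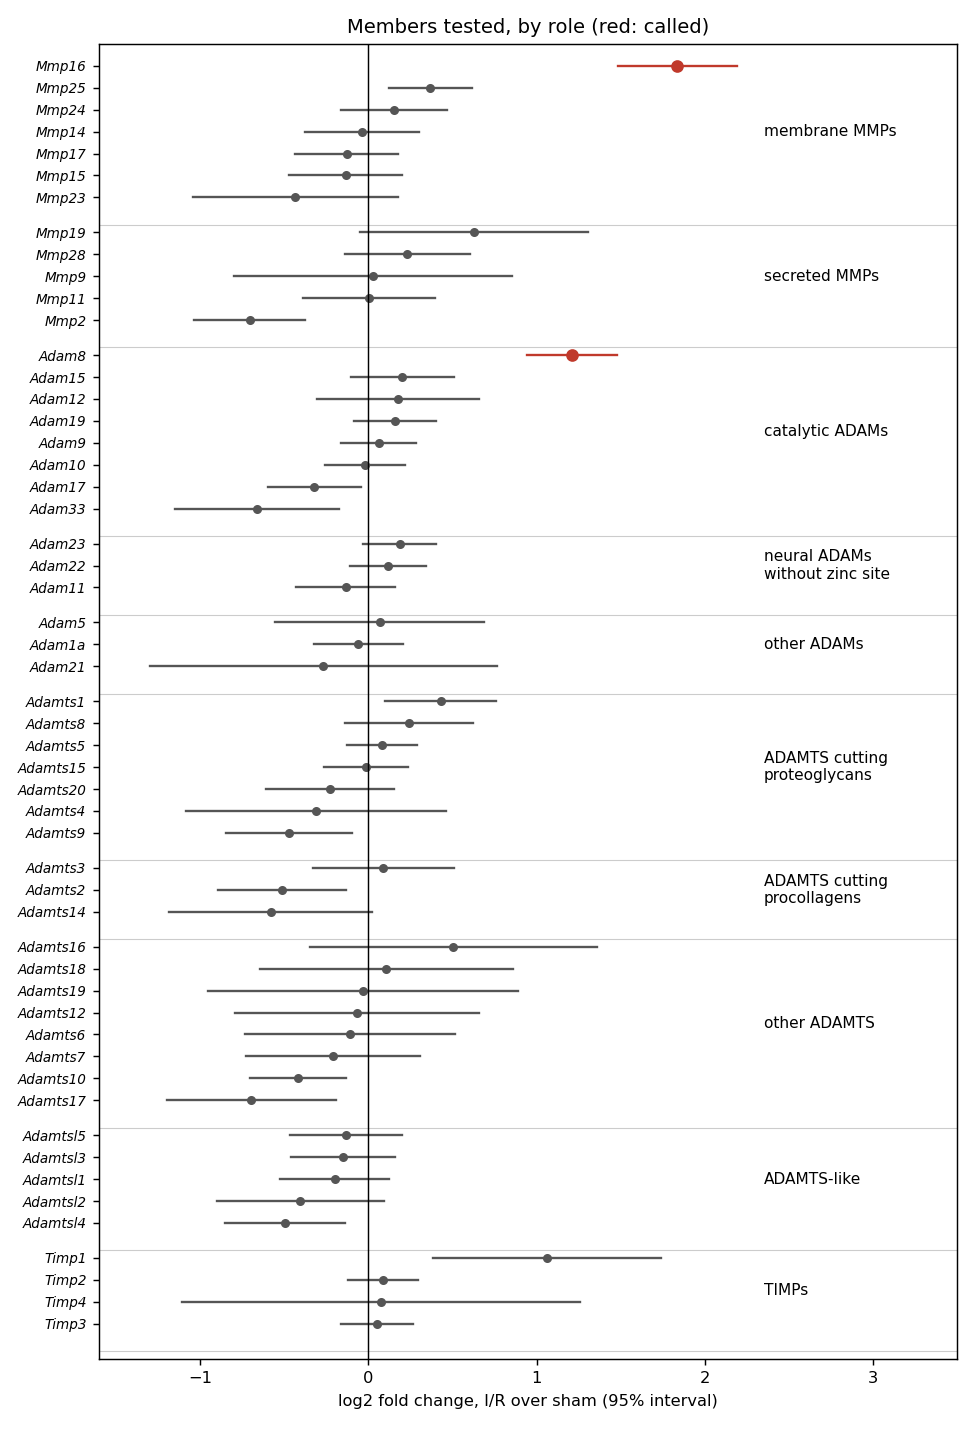
Log2 fold change of the 53 tested members, I/R over sham, with 95% intervals, grouped by role and sorted within each role. Mmp16 and Adam8, in red, are the 2 called members, and the 5 ADAMTS-like genes lie left of 0.

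Of the 4 inhibitors, 0 were called with any of edgeR, DESeq2 and limma-voom. Timp1 had an unadjusted p under 0.05. This inhibitor is induced by injury and cytokines in many tissues. It had 2.57, 2.52 and 1.55 CPM in I/R against 1.08, 0.750 and 1.34 CPM in sham. Every I/R library lay above every sham library, though I/R 3 and sham 3 were close, and the log2 fold change was 1.06 ± 0.30 (edgeR adjusted p = 0.188, 0.0551 to 0.535 over 16 alternatives). Timp1 lies within Syn1, a neuronal gene on the opposite strand with a mean of 500.0 ± 35.1 CPM in I/R and 449 ± 51.2 CPM in sham (SD, n = 3 each), and without a stated strand setting their reads may not have been separated. The same holds for Timp4, which overlaps Syn2 (214 ± 17.9 CPM in I/R and 211 ± 14.2 CPM in sham, SD, n = 3 each), and for Timp3, which overlaps the weakly expressed Syn3. Timp2, which also takes part in the activation of Mmp2 by Mmp14, had 956, 1007 and 1106 CPM in I/R and 1004, 992 and 897 CPM in sham. Timp3, which binds to matrix and blocks Adam17, had 239.8, 265 and 290.1 CPM in I/R and 249, 257 and 260.4 CPM in sham. Timp2 and Timp3 overlapped between the groups, with log2 fold changes of 0.08 ± 0.09 and 0.05 ± 0.10. Timp4 had 1.24, 0.387 and 0.502 CPM in I/R and 0.982, 0.300 and 0.720 CPM in sham, too few for a direction (0.07 ± 0.53).

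Partners of these enzymes were read from lists of activators and inhibitors, shedding cofactors and substrates. The first list holds genes of the plasmin and furin systems, which turn on MMP precursors, and genes outside these systems. Of its 21 tested genes, 2 were called higher and 0 lower. Plaur, the receptor for urokinase, had 13.8, 15.5 and 14.4 CPM in I/R against 5.06, 6.70 and 5.71 CPM in sham, with a log2 fold change of 1.32 ± 0.14 (edgeR adjusted p = 0.00138). Its I/R and sham libraries were separated widely, and it was called in every fit that left out a library but not against sham 2 alone. Among cofactors of Adam10 and Adam17, 0 of 8 were called. Among substrates shed by ADAMs, 0 of 18 were called, with 5 at an unadjusted p under 0.05, against 10.5% of all tested genes. The cytokine receptors Tnfrsf1b and Il6ra had log2 fold changes of 0.54 and 0.50, and the chemokine Cxcl16 -0.48.

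Matrix substrates were called in the lower direction only. Of 13 proteoglycans, 2 were called lower, decorin (Dcn) at -0.65 ± 0.10 (edgeR adjusted p = 0.0113) and lumican (Lum) at -0.93 ± 0.15 (edgeR adjusted p = 0.0178). Of 16 collagens and glycoproteins, 3 were called lower, Col1a1 at -0.97, Col3a1 at -0.94 and Col1a2 at -0.63. The list medians were -0.36 and -0.19, against 0.00 for all tested genes. These 5 genes are also on the list of 12 fibroblast and meninges markers, so these counts overlap. When 1 library was left out, between 0 and 2 of the proteoglycans were called, 0 of them without I/R 2, and between 0 and 3 of the collagens and glycoproteins, 0 of them without I/R 3. None of either list was called against sham 2 alone.

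Among 13 genes that process procollagen and join collagen fibres, 2 were called in each direction. The cross-linking enzymes Lox and Loxl2 rose by 1.05 ± 0.12 and 0.82 ± 0.14 on the log2 scale (edgeR adjusted p = 0.00185 and 0.0193). The collagen chaperone Serpinh1 and Pcolce, which speeds removal of the carboxy-terminal propeptide, fell by 0.96 ± 0.11 and 0.90 ± 0.13 (edgeR adjusted p = 0.00206 and 0.00802). Lox, Serpinh1 and Pcolce were called in every fit that left out a library, and Loxl2 was not called without I/R 2, I/R 3, sham 1 or sham 3. In those 4 fits 1 gene of the list was called higher. None of the 4 was called against sham 2 alone.

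**Figure D4:**
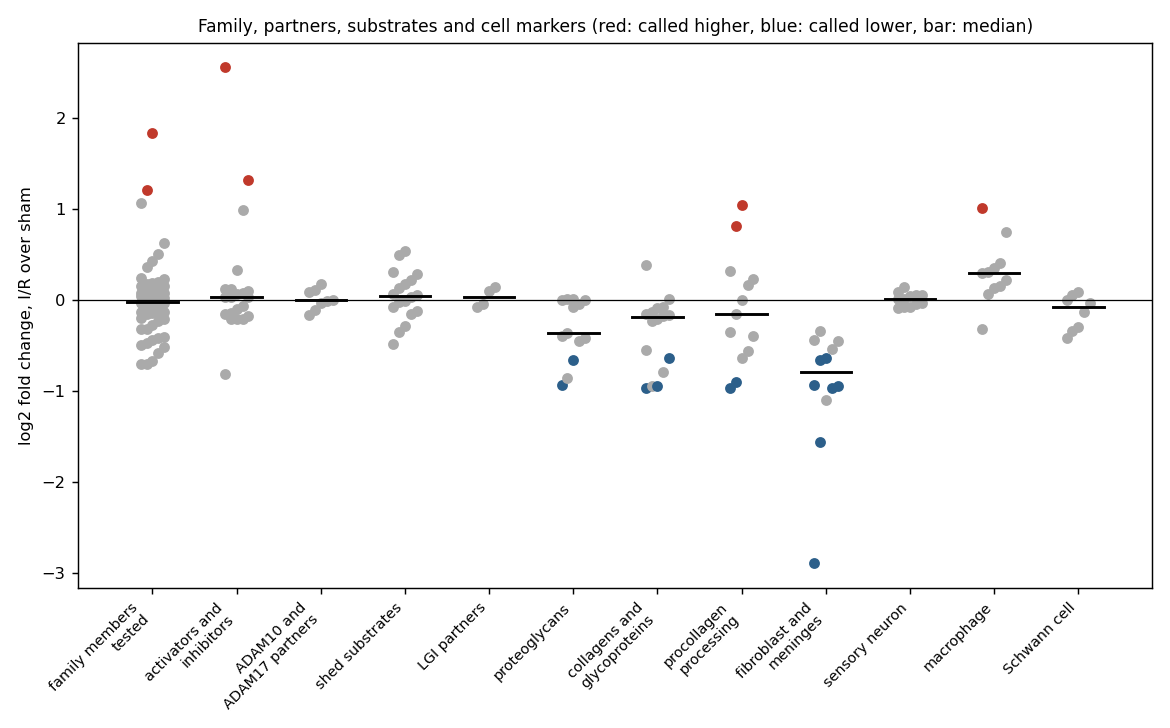
Log2 fold change, I/R over sham, of the tested family members, their partners and substrates, and marker genes of cell types, with the median of each list as a bar. Red points are called higher and blue points lower. Among the lists plotted, blue points stand in the proteoglycan, collagen, procollagen processing and fibroblast lists.

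The libraries were of like depth, from 20234079 to 22010227 counts in I/R and from 19092650 to 20390927 in sham. Sensory neuron markers, which check the labelled tissue, were high in every library, and 0 of 12 were called. Sham 1 and sham 3 held skeletal muscle RNA, with summed levels of 6.38, 12.1 and 9.17 CPM in I/R against 453, 15.7 and 234 CPM in sham, for 9 muscle genes. They were also the highest for 5 oligodendrocyte markers of the spinal cord. These summed to 1.88, 3.73 and 3.01 CPM in I/R and 22.6, 3.35 and 14.3 CPM in sham. Only 1 gene of that list was tested, and it was not called. Schwann cell markers summed to 5847, 6558 and 5853 CPM in I/R and 7146, 6940 and 6830 CPM in sham, with 0 of 8 called. Of other marker lists, genes were called lower in I/R for the arachnoid and perineurial barrier (Cldn11 and Gjb6), satellite glia (Fabp7), mast cells (Cma1 and Mcpt4), skeletal muscle (Myl1) and bone and cartilage (Col2a1). Cldn11 and Gjb6 were called in every fit that left out a library. Fabp7 was not called without I/R 2, I/R 3 or sham 1, nor Col2a1 without I/R 2, sham 1, sham 2 or sham 3. Mcpt4 and Cma1 were not called without I/R 2, I/R 3, sham 2 or sham 3, nor was Cma1 without sham 1. Among fits that left out a library, Myl1 was called only without sham 2. Mast cell sums overlapped, at 95.9, 109 and 122 CPM in I/R and 107, 121 and 102 CPM in sham.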

How the data were processed

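The authors deposited 1 table of estimated counts per gene and library (expected counts), unscaled, with gene symbols and a gene length. Between 10.7% and 11.5% of values in a library were not whole, so they were rounded to whole numbers. HISAT2, StringTie, fastp and the assembly GRCm39 appear in the submitters' processing notes, with no role or version. Which program counted the reads, on which strand and with which annotation is not given in the sources used here. Per the labels' protocols, TRIzol extraction was followed by a stranded Illumina mRNA kit.

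Genes were tested in R 4.3.3 with edgeR 4.0.16 (quasi-likelihood test, two-sided, TMM, filterByExpr, 16346 genes), with no covariate. CPM use TMM-scaled library sizes, and TPM use the deposited gene length. The SE is the log2 fold change over the root of its F statistic, and 95% intervals follow from it. The biological coefficient of variation was 13.2%. On counts simulated over 16133 genes, 9 of 170 calls were false. The share found was 30% for changes of 1.5-fold, 86.2% for 2-fold and 100% for 4-fold. Changed genes were drawn only from those above a minimum mean level, so these shares do not cover the genes of lowest level. The 1.5-fold changes were increases only. Alternatives were RLE and upper-quartile scaling, DESeq2 1.42.0, limma-voom (limma 3.58.1), 2 other filters on low counts, unrounded counts, a replicate block, leaving out each library, sham 2 alone, and the skeletal muscle level as a covariate. That covariate came from 10 muscle list genes, Pvalb among them, with sums of 70.1, 53.5 and 44.3 CPM in I/R. In sham these sums were 513, 55.8 and 307 CPM, so the covariate is not the muscle sum without Pvalb printed above. Levels by longest transcript, muscle sums without Pvalb and calls per list under each alternative were chosen after seeing the data. The set of 6 genes that define neutrophils was not among the planned lists.

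Libraries of a group differed by more than sampling noise (chi-square over its degrees of freedom, 4.05 to 27.9), so each counted as 1 replicate. The limit set by 3 counts covers counting error only.

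Members and lists were chosen with earlier results of these data known. The text names called members, those with an unadjusted p under 0.05, the Timp genes, Mmp2, Mmp9, Mmp14, Adam8, Adam10, Adam17, Adam11, Adam22, Adam23 and the 5 highest per length, all with values in every library. Some other members, such as Mmp19, Mmp8, Mmp13 and those given only by a log2 fold change, fall outside this rule and were picked with their values known. From partner lists it names called genes or up to 3 of smallest p, and 1 gene that this rule takes is not reported here. Reading frames were the longest from a start codon in each gene's protein-coding GENCODE transcripts, aligned with Biopython 1.88. The deposited symbol Nrg1 stood on more than 1 row, and the row of highest count was used.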

Additional observations from a re-analysis of the deposited data

How the results depend on the processing

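Mmp16 was called in all 16 alternatives and Adam8 in 15, the exception being sham 2 alone, where 1 member was called. DESeq2 and the fit without a filter called 3 members, adding Mmp2, and the other alternatives 2. No called member changed direction. Of 23 named members, 5 had the other sign in some alternative, none of them called. Timp3 had a log2 fold change of -0.02 without I/R 3, Timp4 of -0.58 without I/R 1 and -0.27 without sham 2, and Mmp14 reached 0.12, Mmp9 -0.25 and Adam10 0.07. Over all genes, 188 were called, against 312 with DESeq2, 494 without a filter, 76 with the muscle covariate and 32 against sham 2 alone, whose 1 sham library is assumed to vary like the others. With the muscle covariate Dcn, Lum, Col1a2, Lox and Loxl2 were not called. Leaving out 1 library gave 87 to 181 calls, with 87 without I/R 2, 98 without I/R 3 and 93 without sham 1, and 2 called members each time. The cause of these shifts was not tested, except that fits with fewer libraries use less data. With the replicate number as a block, 63 genes and 2 members were called. Deviations of same-numbered libraries had correlations of -0.165, 0.24 and -0.181. The highest values of the same I/R libraries with sham libraries of another number were 0.398, 0.16 and 0.156. With 3 libraries per group, these correlations cannot show whether the numbers pair the libraries. A change of 1.5-fold would often be missed at this depth and spread, and members near 1 CPM, such as Mmp9, Mmp19, Timp1 and Timp4, have wide errors.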

Other observations

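Of the 32 members that were not tested, 23 stand in runs of neighbouring family genes, as do 7 of the 53 that were tested. On chromosome 9, 9 Mmp genes follow one another, Mmp13, Mmp12, Mmp1b, Mmp3, Mmp10, Mmp8, Mmp27, Mmp20 and Mmp7, and none of these 9 passed the filter on low counts. Mmp8, the neutrophil collagenase, had 5, 6 and 3 counts in I/R and 5, 1 and 12 counts in sham, and Mmp13 had 2, 0 and 3 counts in I/R and 0, 2 and 4 counts in sham. Neither set of counts separates the groups.

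A further list held 9 proteases, namely cathepsins and meprins that share matrix substrates with the family, and Astl. Of these, 6 were tested and 0 were called with any of edgeR, DESeq2 and limma-voom, with none at an unadjusted p under 0.05. Their summed level was 3864, 3773 and 3694 CPM in I/R and 3569, 3615 and 3632 CPM in sham.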
